A study of Mus musculus with 6 samples.

Results

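Messenger RNA levels were described for 9 genes of the cyclin-dependent kinase (CDK) inhibitor and p53 axis in mouse prostate: the Cip/Kip genes Cdkn1a, Cdkn1b and Cdkn1c, the Ink4 genes Cdkn2a, Cdkn2b, Cdkn2c and Cdkn2d, and Trp53 and Mdm2. They were taken by gene symbol from the 24091 genes of the count table, and all 9 were among the 15050 genes with enough reads for testing. The table held 6 RNA-seq libraries in 3 groups of 2. The group called 12Q was prostate tumors of mice with a humanised allele that encodes 12 glutamines in a polyglutamine tract, and the group called 48Q was tumors of mice whose allele encodes 48 glutamines. Both tumor genotypes also carried Ctnnb1(Ex3)L/wt, in which 1 β-catenin gene copy can lose the exon that marks the protein for degradation, and PBCre-4, a transgene that drives Cre recombinase in the epithelium of the prostate. The third group (WT) was normal prostate from wild-type animals, which carried none of these alleles, so that the tumor groups differed from WT in both the humanised allele and the β-catenin allele. The age of the mice was not given in the sources used here, and the labels do not state whether the 2 libraries of a group are from different animals, and the p-values below therefore reflect only the spread among these libraries, which may be technical.

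CDK inhibitors bind the kinases that drive a cell from one phase of the division cycle to the next. The Ink4 proteins bind CDK4 and CDK6 and keep the retinoblastoma protein in the form that holds E2F transcription factors in check, whereas the Cip/Kip proteins bind a wider range of cyclin-CDK complexes. The p53 protein, encoded in mice by Trp53, induces Cdkn1a and the gene of its own ubiquitin ligase, Mdm2, and the Arf protein encoded by Cdkn2a inhibits Mdm2. In the prostate and other epithelia, p53, the Cdkn2a products and p21, the product of Cdkn1a, are known as brakes on growth that oncogenic signals can engage.

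Levels are given as CPM (counts scaled to the library's size, here by the trimmed mean of M-values, TMM), as the value of replicate 1 and then of replicate 2 or as mean ± SD with n = 2. Differences are log2 fold changes ± standard error from edgeR's quasi-likelihood test, with Benjamini-Hochberg adjustment over all 15050 genes and a threshold of 0.05. Library totals were 26416181 to 28559546 counts, and a count of 3 was worth 0.0856 to 0.156 CPM. The choice of scaling mattered: when libraries were scaled by their totals alone, the median of all genes moved to 0.48 for 12Q against WT, to 0.71 for 48Q against WT and to -0.19 for 12Q against 48Q, and the changes below are relative to a median near 0.

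Markers of other cell types differed between the groups. Markers said to rise or fall are those called by edgeR against WT. Of all genes, 11.2% were called higher and 11.2% lower in 12Q, and 3.95% and 1.23% in 48Q. Summed over the 7 luminal epithelial markers, the level was 5997 to 8131 CPM in 12Q, 5463 to 7021 CPM in 48Q and 22950 to 38280 CPM in WT, and 2 of 7 markers fell in 12Q and 1 of 7 in 48Q. The secretory gene Pbsn carried most of that contrast, and the other 6 markers summed to 5992 to 8128 CPM in 12Q, 3067 to 3215 CPM in 48Q and 6806 to 10070 CPM in WT. The 7 smooth muscle markers summed to 53.5 to 54.7 CPM in 12Q, 313 to 873 CPM in 48Q and 2341 to 5921 CPM in WT, and 7 of 7 fell in 12Q and 3 of 7 in 48Q. Of the 6 basal epithelial markers 5 fell in 12Q and 0 passed the test in 48Q by edgeR, where 0 also had an unadjusted p under 0.05. Krt5, Krt15, Trp63 and Col17a1 were each below 0.6 CPM in both 12Q libraries, while Itga6 kept the basal sum at 543.8 to 754 CPM in 12Q, 862 to 919 CPM in 48Q and 604 to 905 CPM in WT. Macrophage markers summed to 198 to 212 CPM in 12Q, 249 to 260.0 CPM in 48Q and 69.1 to 70.0 CPM in WT, and 5 of 6 rose in each tumor group. The neutrophil sum was 9.10 to 36.7 CPM, 12.5 to 13.2 CPM and 0.261 to 0.310 CPM in the same order, with S100a8 and Ly6g at 0 in WT. Fibroblast markers summed to 137 to 402 CPM, with Dpt at 0 and 3 of 6 lower, in 12Q, to 804 to 934.5 CPM in 48Q and to 596 to 621.5 CPM in WT. The endothelial sum was 225 to 275 CPM in 12Q, where 3 of 5 markers rose, 111 to 112 CPM in 48Q and 15.1 to 64.8 CPM in WT. Of the squamous epithelial markers, 3 of 6 tested rose and 1 fell in 12Q, and 2 rose in 48Q. They summed to 138 to 166 CPM in 12Q, 56.0 to 77.1 CPM in 48Q and 6.54 to 229 CPM in WT. The WT range came from Sprr1a, at 225.5 CPM in replicate 1 and 4.02 CPM in replicate 2, and the other 6 markers summed to 46.5 to 57.6 CPM in 12Q, 20.4 to 28.2 CPM in 48Q and 2.52 to 3.86 CPM in WT. Seminal vesicle markers summed to 22.7 to 39.9 CPM in 48Q, 1.29 to 2.32 CPM in 12Q and 0.0522 to 0.0884 CPM in WT. B and plasma cell markers summed to 81.5 to 118 CPM in 48Q, 2.48 to 7.84 CPM in 12Q and 1.51 to 34.9 CPM in WT. Jchain carried that contrast, at 116.6 and 80.8 CPM in 48Q. The other 3 markers summed to 1.295 and 0.713 CPM in 48Q, 0.777 and 0.340 CPM in 12Q, and 1.25 and 4.245 CPM in WT. Red blood cell markers summed to 10.8 to 51.9 CPM in 48Q, 120.3 to 144 CPM in 12Q and 16.7 to 38.0 CPM in WT. In bulk tissue fewer cells of a type and less RNA per cell cannot be told apart, and the part of these marker differences in the results for the 9 genes was not tested.

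In 12Q tumors against WT, 4 of the 9 genes passed the test. Cdkn2a, Cdkn2b and Trp53 rose and Mdm2 fell, against a background of 22.4% of all genes tested (11.2% higher and 11.2% lower). In 48Q tumors against WT, 0 of the 9 passed by edgeR, where 5.18% of all genes did (3.95% higher and 1.23% lower), and 3 had an unadjusted p under 0.05. In 12Q against 48Q tumors 0 of the 9 passed by edgeR, where 4.17% of all genes did (1.01% higher and 3.16% lower), and 2 had an unadjusted p under 0.05. DESeq2 called 5, 3 and 1 of the 9 in the 3 comparisons. Wherever 48Q tumors were compared, DESeq2 also called more of all genes than edgeR did, higher and lower alike. The edgeR shares given here and below are therefore not a background for DESeq2 counts. The 12Q and 48Q comparisons with WT share the same WT libraries, so their values are not independent of each other.

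The median log2 fold change of the 9 genes was 1.25 for 12Q against WT, 0.79 for 48Q against WT and 0.51 for 12Q against 48Q, beside medians over all genes of -0.01, 0.02 and 0.00. The libraries of 12Q and WT did not overlap for 7 of the 9 genes (6 higher and 1 lower), where 60.5% of all genes did not overlap (30.1% higher and 30.4% lower). For 48Q and WT the number was 6 (5 higher and 1 lower), beside 64.5% of all genes (34.7% and 29.8%), and for 12Q and 48Q it was 7 (6 higher and 1 lower), beside 66.8% of all genes (31.3% and 35.5%). With library totals 1687 higher and 1683 lower genes in 12Q against WT became 3266 and 1032, the 595 higher and 185 lower genes in 48Q against WT became 1921 and 83, and the 152 higher and 475 lower genes in 12Q against 48Q became 62 and 379.

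**Figure D1:**
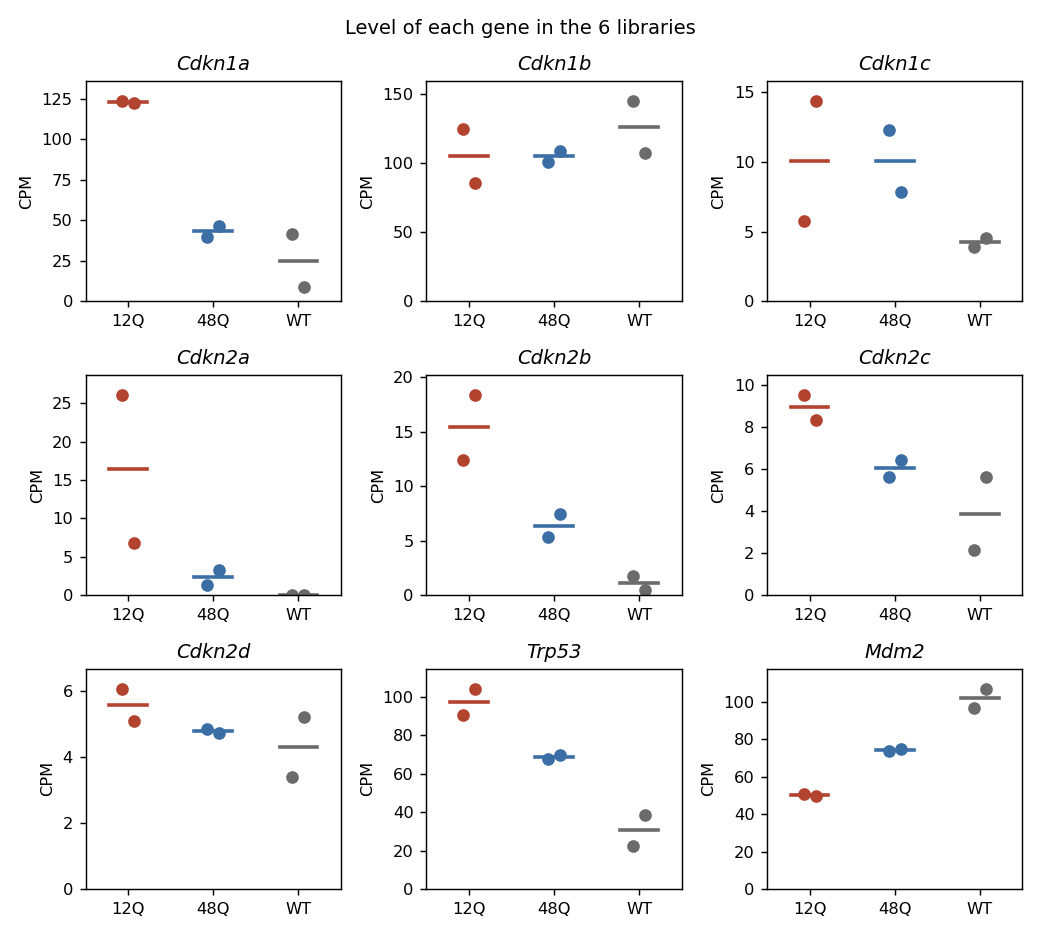
Each panel shows CPM of 1 gene (vertical axis, from 0) in the 2 libraries of 12Q tumors, 48Q tumors and WT prostate (points) with the group mean (line). Cdkn2a, Cdkn2b, Cdkn2c and Trp53 stepped down from 12Q to 48Q to WT without overlap and Mdm2 stepped up at this scaling (with library totals the fitted Mdm2 difference of 48Q from WT was 0.23), whereas the Cdkn1b points of the 3 groups overlapped.

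Cdkn2a gave the largest difference of the 9. The gene lies at chr4:89274473-89294619 on the minus strand of mm10 and encodes p16Ink4a and p19Arf from separate first exons. Its 12Q libraries held 706 and 219 counts, or 26.1 and 6.78 CPM. Its 48Q libraries held 43 and 117 counts, or 1.29 and 3.34 CPM, and its WT libraries held 1 and 0 counts, or 0.0522 and 0 CPM. The 3 groups did not overlap, and the 12Q libraries differed from each other more than the 48Q libraries did from WT in CPM.

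Because WT held a single Cdkn2a count, the ratio of levels is known only loosely. With the counts of a group pooled over its scaled library sizes, it was 651 for 12Q against WT, with an exact 95% interval of 116.6 to 25760, and 97.9 for 48Q against WT, with an interval of 17.3 to 3892. These intervals cover counting error only. The ratio for 12Q was 283 without 12Q replicate 1 and 1092 without 12Q replicate 2. It was 299 without WT replicate 2, and without WT replicate 1, where the remaining WT library had no count, the mean CPM of 12Q was at least 124-fold higher than a floor of 3 counts in that library. The rise in 12Q passed the edgeR test (adjusted p = 0.00867). The adjusted p for 48Q against WT was 0.0501 by edgeR. It fell on the other side of the threshold in 6 of 12 alternative analyses and stayed above it in 6. Among those on the other side were the fits without either 12Q library, though 12Q is not part of this comparison. With 1 library left out, the fitted difference of 48Q from WT ranged from 5.35 to 9.12 on the log2 scale. The difference between 12Q and 48Q was 2.82 ± 0.86 on the log2 scale (edgeR adjusted p = 0.110, and 0.00721 by DESeq2). It was 1.57 without 12Q replicate 1, 3.50 without 12Q replicate 2 and 3.67 without 48Q replicate 2.

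The counts sum both Cdkn2a transcripts, so p16Ink4a and p19Arf messages cannot be told apart. Their starts in the RefSeq annotation are 12427 bases apart, and the bases before each are shown because the promoters differ in composition. The window of 250 bases before the Arf start holds 78.4% G and C and 40 CpG pairs, and the window before the Ink4a start holds 60.0% and 7 CpG pairs, beside medians of 52.4% and 6 over 32851 promoter windows. The sequences are from RefSeq (GRCm38.p6), minus strand, 5′ to 3′, at chr4:89294654-89294869 and chr4:89282193-89282442, and capitals mark a GC box (GGGCGG on either strand), which 35.7% of all windows of 300 bases hold.
Cdkn2a, before the Arf start: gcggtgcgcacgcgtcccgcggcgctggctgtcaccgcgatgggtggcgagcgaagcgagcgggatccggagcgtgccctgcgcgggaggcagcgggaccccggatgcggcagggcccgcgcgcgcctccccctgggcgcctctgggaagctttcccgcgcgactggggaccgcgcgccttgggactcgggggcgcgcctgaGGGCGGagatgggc
Cdkn2a, before the Ink4a start: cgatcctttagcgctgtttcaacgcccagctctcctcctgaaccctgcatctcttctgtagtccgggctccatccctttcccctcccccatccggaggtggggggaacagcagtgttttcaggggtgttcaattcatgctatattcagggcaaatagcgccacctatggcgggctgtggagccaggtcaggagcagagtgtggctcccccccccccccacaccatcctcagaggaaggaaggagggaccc
The Arf sequence has 1 GC box in the printed stretch and the Ink4a sequence has none there. The E2F forms TTTCGCGC and TTTGGCGC, on either strand, and the TCF/LEF forms CTTTGAT and CTTTGAA were searched for. None was found in the 11 promoter windows that RefSeq gave for 8 of the 9 genes, where 0.813% and 8.65% of all windows hold them. That says only that these letters are not in these windows. Other forms were not searched for, such as the TTTCCCGC in the Arf sequence above, so an E2F motif there is not excluded.

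Cdkn2b, next to Cdkn2a at chr4:89306289-89311032 on the minus strand, encodes p15Ink4b, an inhibitor of CDK4 and CDK6 that TGF-β signalling is known to induce. Its levels were 12.4 and 18.4 CPM in 12Q, 5.30 and 7.47 CPM in 48Q, and 1.72 and 0.486 CPM in WT. All 3 groups were apart, in the order 12Q, 48Q, WT. The rise in 12Q against WT was 3.81 ± 0.68 on the log2 scale (edgeR adjusted p = 0.0147). It was 4.98 without WT replicate 1 and 3.15 without WT replicate 2, and the call was lost without 12Q replicate 2 (adjusted p = 0.0508). The difference of 48Q from WT was 2.54 ± 0.66 (edgeR adjusted p = 0.0760, and 0.00233 by DESeq2), or 3.70 without WT replicate 1 and 1.88 without WT replicate 2, and that of 12Q from 48Q was 1.27 ± 0.61 (adjusted p = 0.239).

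Within a library, the Cdkn2a level per kilobase of deposited gene length was 2.58 times that of Cdkn2b in 12Q replicate 1 and 0.453 times in 12Q replicate 2. It was 0.300 and 0.549 times in the 48Q libraries and 0.0372 and 0 times in the WT libraries. Only 12Q replicate 1 therefore held more Cdkn2a than Cdkn2b per kilobase, and these neighbouring genes differed from each other in their proportions even between the 12Q libraries.

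The other Ink4 genes moved less. Cdkn2c (p18Ink4c, chr4:109660876-109666756, minus strand) was at 9.55 and 8.36 CPM in 12Q, 5.63 and 6.45 CPM in 48Q, and 2.14 and 5.62 CPM in WT. The groups were apart, though 48Q replicate 1 and WT replicate 2 differed by less than the spread within WT, and the difference of 12Q from WT was 1.20 ± 0.54 on the log2 scale (edgeR adjusted p = 0.153). It was 2.06 without WT replicate 2 (adjusted p = 0.0415) but 0.68 without WT replicate 1 (adjusted p = 0.268). Cdkn2d (p19Ink4d, chr9:21288464-21291209, minus strand) was at 6.07 and 5.08 CPM in 12Q, 4.85 and 4.73 CPM in 48Q, and 3.39 and 5.22 CPM in WT. Both tumor groups overlapped WT for Cdkn2d, and its difference was 0.37 ± 0.44 in 12Q (edgeR adjusted p = 0.567) and 0.15 ± 0.43 in 48Q (adjusted p = 0.856), the latter -0.13 without WT replicate 1.

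Cdkn1a encodes p21, the Cip/Kip inhibitor best known as a p53 target. Its levels were 124 and 123 CPM in 12Q, 39.7 and 46.7 CPM in 48Q, and 41.3 and 8.67 CPM in WT. Both 12Q libraries were above all others and differed from each other by under 1 CPM, whereas WT replicate 1 lay between the 48Q libraries and WT replicate 2 far below them. The difference of 12Q from WT was 2.30 ± 0.66 on the log2 scale, or 4.93-fold, and missed the threshold by edgeR (adjusted p = 0.0524). The value moved with the WT libraries: it was 3.83 without WT replicate 1 (adjusted p = 0.0173) and 1.57 without WT replicate 2 (adjusted p = 0.0244), and DESeq2 gave an adjusted p of 0.00301.

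Against 48Q, Cdkn1a in 12Q differed by 1.51 ± 0.64, or 2.85-fold (edgeR adjusted p = 0.199). The adjusted p was 0.0358 without WT replicate 1 and 0.0365 without WT replicate 2 and 0.0386 with only the 2 tumor groups fitted. The difference of 48Q from WT was 0.79 ± 0.64 (edgeR adjusted p = 0.475), and it was 2.31 without WT replicate 1 and 0.05 without WT replicate 2. A p that misses the threshold does not show that 48Q and WT were alike.

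The Cdkn1a gene spans chr17:29090979-29100722 on the plus strand of mm10 and has 2 starts in RefSeq that are 2790 bases apart. Both are shown because the upstream one carries a p53 response element. The sequences are from RefSeq (GRCm38.p6), plus strand, 5′ to 3′, at chr17:29090729-29090975 and, within the gene's span, chr17:29093519-29093768. Capitals mark the p53 element in the first and GC boxes in the second.
Cdkn1a, before the upstream start: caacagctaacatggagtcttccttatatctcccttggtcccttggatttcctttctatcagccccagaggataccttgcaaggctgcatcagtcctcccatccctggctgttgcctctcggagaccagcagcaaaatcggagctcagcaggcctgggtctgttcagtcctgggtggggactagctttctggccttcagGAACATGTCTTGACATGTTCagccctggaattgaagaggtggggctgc
Cdkn1a, before the downstream start: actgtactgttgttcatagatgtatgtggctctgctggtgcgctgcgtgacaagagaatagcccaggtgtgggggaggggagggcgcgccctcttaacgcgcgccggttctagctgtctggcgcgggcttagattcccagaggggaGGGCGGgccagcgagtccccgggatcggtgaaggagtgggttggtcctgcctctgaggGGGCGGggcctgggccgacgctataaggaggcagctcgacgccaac
The element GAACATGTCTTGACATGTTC lies at chr17:29090928-29090947, from position -51 to -32 relative to the upstream start. A match to the p53 consensus with no gap and at most 1 mismatch outside the core was found in 22 of the 32851 windows (0.067%), on either strand, and Cdkn1a was the only one of the 8 genes with a window to hold it. This rule was chosen after the sequences were seen, and the Cdkn1a element uses the 1 mismatch allowed. The share is therefore a description and not a test, and elements outside the windows were not searched for. The counts do not separate transcripts by start, so the use of either start cannot be read from them. A sequence match is a description and not a measured binding site.

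Cdkn1b (p27, chr6:134920401-134925525, plus strand), which is controlled in large part through the stability of its protein, was the most abundant inhibitor message per kilobase in WT. Its levels were 124 and 85.3 CPM in 12Q, 100.5 and 109 CPM in 48Q, and 145 and 107 CPM in WT. The 3 groups overlapped one another. Its difference from WT was -0.26 ± 0.28 in 12Q (edgeR adjusted p = 0.518) and -0.27 ± 0.28 in 48Q (adjusted p = 0.587), and it changed sign with library totals (0.24 and 0.44).

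Cdkn1c (p57, chr7:143458339-143461050, minus strand), an imprinted inhibitor, was at 5.74 and 14.4 CPM in 12Q, 12.3 and 7.87 CPM in 48Q, and 3.91 and 4.55 CPM in WT. Both tumor groups lay above WT, and the tumor groups overlapped each other. The difference from WT was 1.25 ± 0.54 in each (edgeR adjusted p = 0.144 in 12Q and 0.215 in 48Q), and in 12Q it was 1.81 without 12Q replicate 1 (adjusted p = 0.0464) but 0.44 without 12Q replicate 2 (adjusted p = 0.532). Exons of Cdkn1a and Cdkn1c overlap genes annotated on the opposite strand, so their counts are uncertain because it is not known whether counting used strand.

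**Figure D2:**
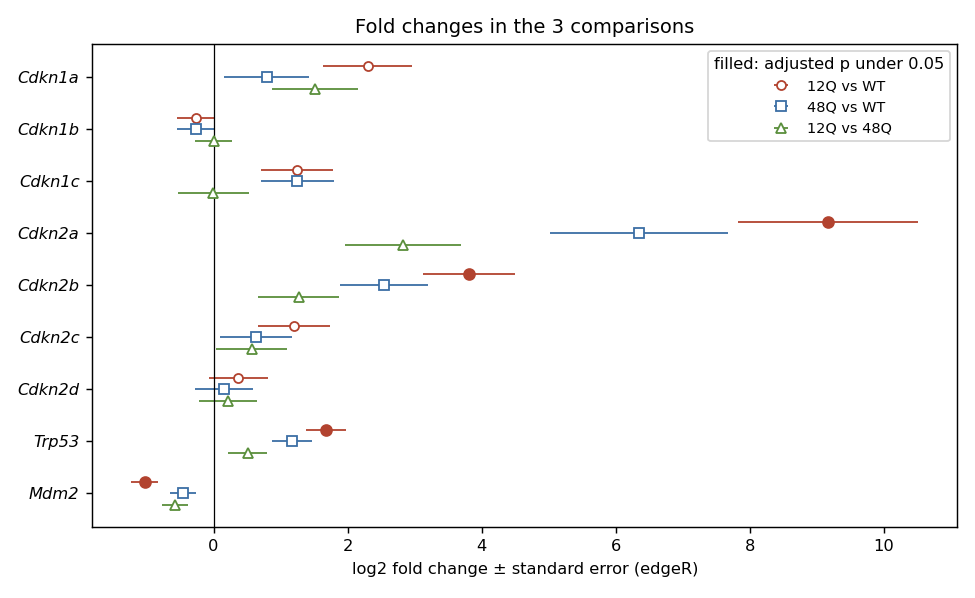
The horizontal axis is the log2 fold change ± standard error of each gene from edgeR in 12Q against WT (circles), 48Q against WT (squares) and 12Q against 48Q (triangles), and filled symbols mark an adjusted p under 0.05. The 4 filled symbols are Cdkn2a, Cdkn2b, Trp53 and Mdm2 in 12Q against WT, and the fitted value of Cdkn2a against WT depends on the prior count because WT held 1 count.

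Trp53 (chr11:69580359-69591873, plus strand) encodes p53 itself. Its levels were 90.5 and 104 CPM in 12Q, 67.4 and 69.6 CPM in 48Q, and 22.4 and 38.5 CPM in WT. The 3 groups were apart, with every 12Q library above every 48Q library and both above WT. The rise in 12Q against WT was 1.68 ± 0.30 on the log2 scale, or 3.19-fold (edgeR adjusted p = 0.0149), and the call was lost without 12Q replicate 2 (adjusted p = 0.0513). The difference of 48Q from WT was 1.17 ± 0.30, or 2.25-fold (edgeR adjusted p = 0.0747, and 0.0116 by DESeq2). The difference between the tumor groups was 0.51 ± 0.29 (edgeR adjusted p = 0.316). A processed pseudogene of Trp53 is annotated on chromosome 17, and the handling of reads with several matches was not given in the sources used here, so the Trp53 level is uncertain to that extent.

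Mdm2 (chr10:117688875-117710758, minus strand), which encodes the ubiquitin ligase of p53 and is itself a p53 target, went the other way. Its levels were 50.6 and 49.5 CPM in 12Q, 73.6 and 74.9 CPM in 48Q, and 96.8 and 107 CPM in WT. The groups were apart and the libraries of each tumor group lay within 2 CPM of each other. Mdm2 fell by 1.03 ± 0.20 on the log2 scale in 12Q against WT (edgeR adjusted p = 0.0172). The call was lost with library totals (-0.53, adjusted p = 0.0988), with only the 2 groups fitted (0.0640), and without 48Q replicate 1 (0.0752) or 48Q replicate 2 (0.0749). In 48Q the difference from WT was -0.46 ± 0.20 (edgeR adjusted p = 0.211), and 0.23 with library totals. Between the tumor groups it was -0.57 ± 0.20 (edgeR adjusted p = 0.137).

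Ratios between genes of 1 library do not depend on how libraries are scaled. Per kilobase of deposited gene length, the ratio of Mdm2 to Trp53 was 0.419 and 0.355 in 12Q, 0.818 and 0.807 in 48Q, but 3.24 and 2.08 in WT. Mdm2 was thus the more abundant message of the pair in both WT libraries and the less abundant one in all 4 tumor libraries, and the groups did not overlap. The ratio of Cdkn1a to Mdm2, both p53 targets, was 3.44 and 3.50 in 12Q, 0.760 and 0.879 in 48Q, against 0.602 and 0.114 in WT. The groups were apart in this ratio too, and only the 12Q libraries held more Cdkn1a than Mdm2. With 2 libraries against 2, the smallest p that an exact two-sided permutation test can give is 0.333, and the ratios are given as a description, with no test.

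**Figure D3:**
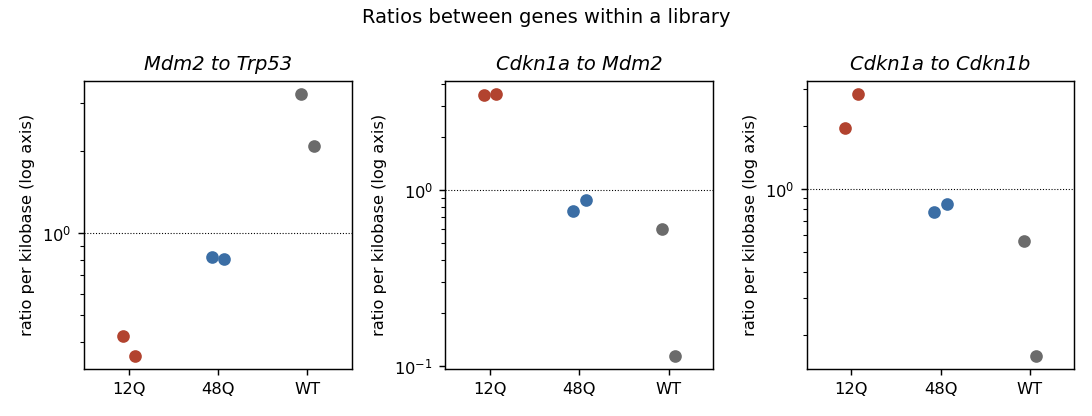
Each panel plots, on a log axis, the ratio of 2 genes' CPM per kilobase in the 2 libraries of each group (points); the dotted line marks equal levels. The Mdm2 to Trp53 ratio was 0.355 to 0.419 in 12Q, 0.807 to 0.818 in 48Q and 2.08 to 3.24 in WT, and the ratios of Cdkn1a to Mdm2 and of Cdkn1a to Cdkn1b were above 1 in the 12Q libraries only.

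The makeup of CDK inhibitor mRNA was compared per kilobase of deposited gene length. The 7 inhibitors summed to 128 and 109 CPM per kilobase in 12Q, 58.3 and 64.7 in 48Q, against 58.5 and 37.5 in WT. Cdkn1b took 56.5% and 65.2% of that sum in WT. Its share was 39.4% and 38.4% in 48Q but 22.2% and 17.9% in 12Q. Cdkn1b was thus the leading inhibitor message in WT and 48Q libraries, without overlap of its share between groups. Cdkn1a took 43.5% and 50.7% in 12Q, 30.6% and 32.5% in 48Q, against 31.8% and 10.4% in WT, and it led in both 12Q libraries. The ratio of Cdkn1a to Cdkn1b per kilobase was 1.96 and 2.83 in 12Q, 0.778 and 0.846 in 48Q, against 0.563 and 0.160 in WT.

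The 4 Ink4 genes together took 13.2% ± 7.01 of the inhibitor sum in WT, 21.0% ± 2.64 in 48Q tumors and 28.3% ± 5.22 in 12Q tumors (SD, n = 2 each). Cdkn2a took 0.0788% and 0% in WT against 1.96% and 4.55% in 48Q and 18.1% and 5.50% in 12Q. Cdkn2b took 2.12% and 0.932% in WT, against 6.53% and 8.30% in 48Q and against 6.99% and 12.1% in 12Q. The Ink4 share of WT replicate 2 was 18.1%, close to the 19.1% of 48Q replicate 1. Cdkn2d took 10.5% of the sum in that WT library, the largest share of any Ink4 gene in WT.

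**Figure D4:**
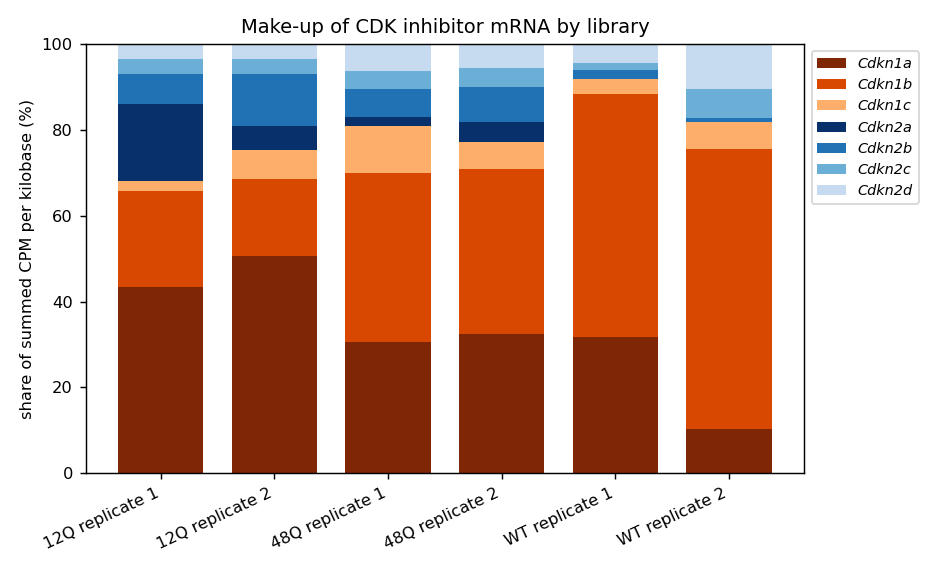
Bars give the share of each inhibitor in the summed CPM per kilobase of the 7 CDK inhibitor genes (vertical axis, %) in each of the 6 libraries. Cdkn1b took 56.5% and 65.2% in WT but 22.2% and 17.9% in 12Q, where Cdkn1a took 43.5% and 50.7%.

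The p53 target genes other than Cdkn1a and Mdm2 were read from a list of 29, all tested. In 12Q against WT 8 rose and 1 fell (27.6% and 3.45%, beside 11.2% and 11.2% of all genes), with a median of 0.52 beside -0.01 over all genes. Plk2, a polo-like kinase, was at 265 and 290.0 CPM in 12Q, 70.2 and 91.0 CPM in 48Q, and 5.37 and 12.6 CPM in WT. It rose by 4.94 ± 0.47 in 12Q (edgeR adjusted p = 0.00353) and by 3.16 ± 0.44 in 48Q (adjusted p = 0.0220). Without WT replicate 2 these were 5.69 and 3.90. The 48Q call was lost without either 48Q library or without WT replicate 1. Phlda3, an inhibitor of Akt, stood at 57.4 ± 18.1 CPM in 12Q, 17.8 ± 3.83 CPM in 48Q and 8.39 ± 3.08 CPM in WT, and rose by 2.77 ± 0.41 in 12Q. Ppm1d, the Wip1 phosphatase that acts on p53 and its kinases, stood at 62.4 ± 18.4 CPM in 12Q, 22.4 ± 1.81 CPM in 48Q and 18.1 ± 1.90 CPM in WT, and rose by 1.79 ± 0.29 in 12Q.

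The other targets that rose in 12Q were Plk3, Pmaip1 (Noxa), Tigar, Btg2 and Bax. Fas, the death receptor, went against them at 5.63 ± 0.793 CPM in 12Q, 9.63 ± 0.583 CPM in 48Q and 24.9 ± 7.42 CPM in WT, a fall of 2.14 ± 0.35 in 12Q (edgeR adjusted p = 0.0117). The list's count in 12Q ranged from 3 to 7 higher and 1 to 3 lower when 1 library was left out, with 3 higher without WT replicate 1, 4 without WT replicate 2 and 5 without either 48Q library, and with library totals it was 12 higher and 1 lower. In 48Q against WT 1 of 29 rose (Plk2) and 1 fell (Dcxr, a carbonyl reductase, by 1.47 ± 0.31, edgeR adjusted p = 0.0499), with a median of 0.31. These are 3.45% each, beside 3.95% higher and 1.23% lower of all genes. In that comparison 8 of the 29 had an unadjusted p under 0.05 by edgeR, and DESeq2 called 4 higher and 2 lower. The Dcxr call in 48Q was lost with library totals (-0.80) and without any 48Q or WT library. In 12Q against 48Q Dcxr and Ppm1d were higher, by 1.62 ± 0.31 (edgeR adjusted p = 0.0449) and 1.48 ± 0.29 (adjusted p = 0.0478), and both calls were lost when any tumor library was left out or with library totals. The Ppm1d call was also lost without either WT library and with only the tumor groups fitted. Over the list, 2 of 29 were higher and 0 lower in 12Q against 48Q by edgeR, with a median of 0.42. These are 6.9% and 0%, beside 1.01% and 3.16% of all genes. There 8 had an unadjusted p under 0.05 by edgeR, and DESeq2 called 4 higher and 0 lower. Of the 21 list genes with a promoter window, 1, Ccng1, held the p53 element described above. Ccng1 was at 580.0 and 150 CPM in 12Q, 176 and 175 CPM in 48Q, and 284 and 319 CPM in WT, and its groups overlapped in 12Q against WT.

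**Figure D5:**
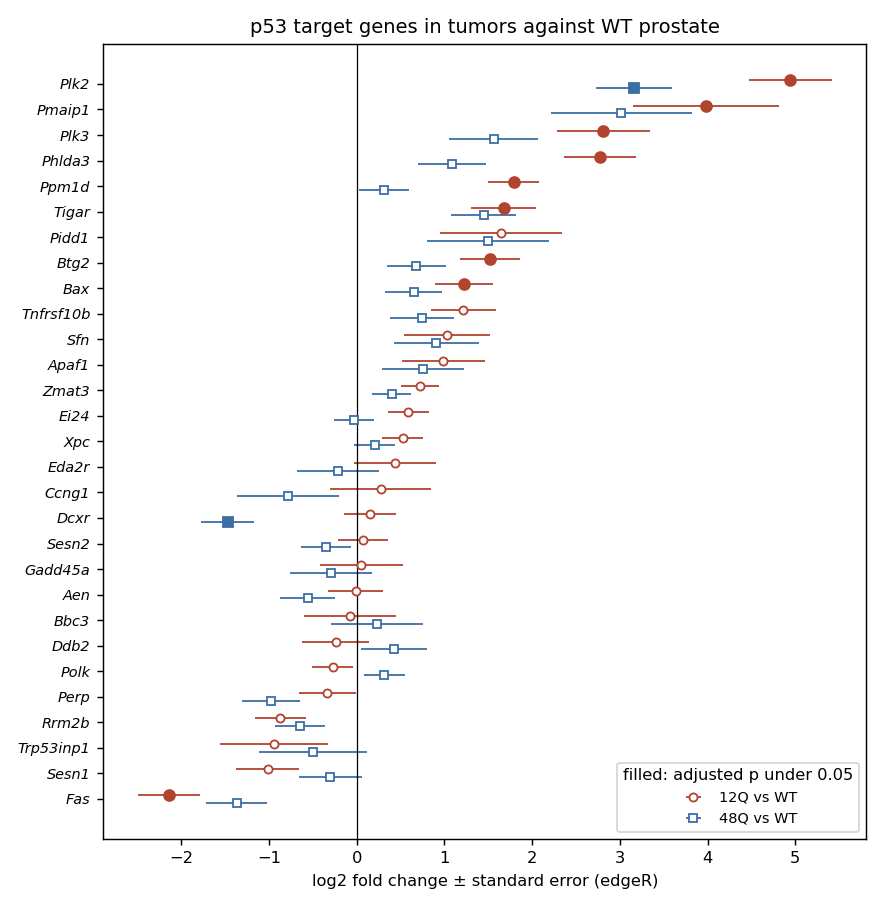
The log2 fold change ± standard error (horizontal axis, edgeR) of the 29 listed p53 target genes is plotted for 12Q against WT (circles) and 48Q against WT (squares), and filled symbols mark an adjusted p under 0.05. In 12Q, 8 genes led by Plk2 at 4.94 rose and Fas fell by 2.14, and in 48Q Plk2 rose and Dcxr fell, a call that was lost with library totals and without any 48Q or WT library.

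Among 15 tested genes of the p53 family and its regulators, 0 rose and 1 fell in 12Q against WT, or 6.67% called beside 22.4% of all genes. The median was -0.13, and it changed sign with library totals (0.38). The gene that fell was Trp63, the p53 relative that is a defining factor of basal epithelium. It was at 0.0370 and 0.186 CPM in 12Q, 29.6 and 24.2 CPM in 48Q, and 33.9 and 42.9 CPM in WT. The 12Q libraries held 7 Trp63 counts in all, and the difference was -8.32 ± 0.60 from WT (edgeR adjusted p = 0.00270) and -7.80 ± 0.59 from 48Q (adjusted p = 0.00813). It was -9.85 and -9.33 without 12Q replicate 2, and -7.61 and -7.12 without 12Q replicate 1. Trp63 is itself one of the 5 basal markers that fell in 12Q. Mdm4, the Mdm2 relative that binds p53, is named here after its values were seen. It was at 54.4 and 123 CPM in 12Q, 253 and 283 CPM in 48Q, and 140 and 233 CPM in WT. Its difference of 12Q from 48Q was -1.59 ± 0.45 (edgeR adjusted p = 0.0950). In 48Q against WT 0 of the 15 genes passed by edgeR, 0 had an unadjusted p under 0.05 and DESeq2 called 0. The most abundant of them by the mean over all 6 libraries were Usp7, at 199 ± 4.03 CPM in 48Q and 247 ± 26.7 CPM in WT, and Ep300, at 227 ± 17.2 CPM and 140 ± 50.7 CPM.

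The targets of the inhibitors themselves were read from a list of CDKs, cyclins and pocket proteins, of which 15 were tested. In 12Q against WT 6 rose and 1 fell (median 1.01), or 46.7% called beside 22.4% of all genes. In 48Q against WT 5 rose and 0 fell (median 0.33), or 33.3% called beside 5.18%. The S and M phase cyclins rose in 12Q by 3.64 ± 0.37 (Ccna2, edgeR adjusted p = 0.00409), 4.28 ± 0.46 (Ccnb2) and 4.91 ± 0.70 (Ccnb1), and the mitotic kinase Cdk1 by 3.42 ± 0.38. The Ink4 targets Cdk6 and Cdk4 rose in 12Q by 2.05 ± 0.31 and 1.01 ± 0.20. Cdk6 was at 68.9 and 86.1 CPM in 12Q, 101 and 97.3 CPM in 48Q, and 13.9 and 23.4 CPM in WT, and rose in 48Q by 2.41 ± 0.31 (edgeR adjusted p = 0.0187). The other 4 genes that rose in 48Q were Ccna2, Ccnb2, Cdk1 and Ccnb1. The count in 48Q was 0 without either 48Q library or WT replicate 1, and 1 without WT replicate 2.

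Ccnd2, a D-type cyclin, was the gene of this list that fell in 12Q, by 1.69 ± 0.29 from WT (edgeR adjusted p = 0.0128). It was at 9.77 and 12.6 CPM in 12Q, 53.4 and 48.6 CPM in 48Q, and 29.7 and 42.3 CPM in WT. The 12Q libraries were below all others, and the difference from 48Q was -2.19 ± 0.29 (edgeR adjusted p = 0.0246), a call that was lost when any tumor library was left out.

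Of 19 E2F factors and Rb-E2F target genes, 11 rose and 0 fell in 12Q against WT (57.9% called beside 22.4% of all genes), with a median of 2.10. Among them were Rrm2, a ribonucleotide reductase subunit (2.10 ± 0.30, edgeR adjusted p = 0.00823), Mcm5 of the replicative helicase (3.42 ± 0.50), and the nucleotide synthesis enzyme Tyms (2.20 ± 0.32). Without WT replicate 2 the Mcm5 value was 4.19. The count was 5 without 12Q replicate 2 or without WT replicate 1, and 7 without either 48Q library. In 48Q against WT 0 of 19 passed by edgeR (median 0.59), where 6 had an unadjusted p under 0.05 and DESeq2 called 5. In 12Q against 48Q 0 of 19 passed by edgeR (median 1.12), where 8 had an unadjusted p under 0.05 and DESeq2 called 6. The most abundant by the mean over all 6 libraries, Tfdp2 and E2f3, were at 44.8 ± 4.35 and 42.2 ± 4.95 CPM in 12Q, 63.1 ± 5.72 and 44.5 ± 0.614 CPM in 48Q, and 74.7 ± 9.50 and 33.9 ± 18.0 CPM in WT.

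All 9 proliferation markers rose in 12Q against WT (median 3.88) and 7 of 9 in 48Q against WT (median 2.27). These are 100% and 77.8% called, beside 22.4% and 5.18% of all genes. Top2a, the topoisomerase of dividing cells, was at 227 and 241 CPM in 12Q, 61.1 and 95.9 CPM in 48Q, and 37.7 and 30.5 CPM in WT. In 12Q against 48Q all 9 markers had a positive fitted difference (median 1.62). Of these, 7 had an unadjusted p under 0.05 by edgeR, and DESeq2 called 7. By edgeR only Top2a passed, higher in 12Q by 1.58 ± 0.29 (adjusted p = 0.0408), or 11.1% called beside 4.17% of all genes. The 12Q libraries with the highest Cdkn1a, Cdkn2a and Cdkn2b levels were thus also those with the highest Top2a levels. That call was lost without any 1 of the 6 libraries. In 48Q against WT, the marker count was 5 and 3 without 12Q replicate 1 or 2 and 0 without any other library.

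Regulators of the inhibitor genes and proteins divided evenly in 12Q, as all genes did: 4 of 24 rose and 4 fell (16.7% each, beside 11.2% each over all genes), with a median of 0.12. The counts were 4 and 1 without 12Q replicate 1, 3 and 0 without 12Q replicate 2, 1 and 2 without either 48Q library, and 2 and 1 or 2 and 3 without WT replicate 1 or 2. Ezh2, the Polycomb methyltransferase known to silence Cdkn2a, rose by 1.71 ± 0.26 in 12Q (edgeR adjusted p = 0.00961), at 43.4 ± 0.753 CPM in 12Q, 26.9 ± 4.17 CPM in 48Q and 13.3 ± 1.74 CPM in WT. Bmi1, a Polycomb protein also known as a repressor of Cdkn2a, fell by 1.85 ± 0.35 (adjusted p = 0.0171), a call that was lost without 12Q replicate 2 or WT replicate 1. Tbx2, a T-box repressor of Cdkn2a and Cdkn1a, fell by 3.07 ± 0.57 (adjusted p = 0.0162), a call that was lost without either 12Q library. Its WT libraries differed widely, at 25.1 and 80.7 CPM, and the value was -3.67 without the first and -1.999 without the second. Myc rose by 1.14 ± 0.20 (adjusted p = 0.0144) and its call was lost without either 48Q library. In both comparisons with 48Q 0 of 24 passed by edgeR, where 5 and 6 had an unadjusted p under 0.05 and DESeq2 called 4 and 2. The most abundant by that mean were Tbx3, at 1006 ± 175 CPM in 12Q, 795 ± 44.1 CPM in 48Q and 953 ± 86.3 CPM in WT, and Skp1a, at 673 ± 271, 416 ± 39.5 and 238 ± 41.1 CPM.

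Senescence-associated genes were counted over 13 tested genes. In 12Q against WT 7 rose and 0 fell (median 1.91), or 53.8% called beside 22.4% of all genes. In 48Q against WT 3 rose and 0 fell (median 1.96), or 23.1% called beside 5.18%. The 12Q count was 3 without 12Q replicate 1 and 2 without 12Q replicate 2, and the 48Q count was 0 without either 48Q library or WT replicate 1, and 2 without WT replicate 2. Lmnb1, a nuclear lamin that is known to decline in senescent cells, rose in 12Q by 2.48 ± 0.36 (edgeR adjusted p = 0.00869) and in 48Q by 1.78 ± 0.36 (adjusted p = 0.0465), the latter lost without any 48Q or WT library. Among secreted factors and their receptors, Il1a rose in 12Q by 5.53 ± 0.96. Plaur rose (adjusted p = 0.0305), at 24.9 and 18.7 CPM in 12Q against 4.43 and 1.02 CPM in WT. The call was lost without WT replicate 1 for Il1a and without either 12Q library for Plaur. Il1a ranged from 4.17 without 12Q replicate 2 to 6.35 without WT replicate 2, and Plaur from 2.29 without WT replicate 2 to 4.42 without WT replicate 1. In 48Q Igfbp7 rose by 2.35 ± 0.39 (adjusted p = 0.0306) and the chromatin protein gene Hmga2 by 5.35 ± 0.93 (adjusted p = 0.0341), and both calls were lost without either 48Q library or WT replicate 1. Without WT replicate 2 they were 3.02 and 4.596, and the Hmga2 call was lost, and without WT replicate 1 Hmga2 was 6.74. In 12Q against 48Q 0 of 13 passed by edgeR (median 0.70), where 4 had an unadjusted p under 0.05 and DESeq2 called 4. The most abundant by that mean were Igfbp5, at 68.4 and 14.4 CPM in 12Q and 494 and 230.2 CPM in 48Q, and Igfbp3, at 172 and 231 CPM and 121 and 90.4 CPM.

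The genes whose pattern over the 6 libraries was most like that of a called gene were taken by Pearson's correlation of log2 CPM among 9216 genes with a mean of at least 10 CPM. These correlations over 6 points in 3 groups are a description, and the points share the group differences. For Cdkn2a they were Nipal4 (r = 0.999), at 42.4 ± 27.0 CPM in 12Q, 9.52 ± 4.69 CPM in 48Q and 1.00 ± 0.354 CPM in WT, and Hebp2 (r = 0.997). For Cdkn2b they were Pim1 (r = 0.997) and Rasgef1b (r = 0.993), for Trp53 Ifi27 (r = 0.999) and Lbr (r = 0.999), and for Mdm2 Rnf170 (r = 0.997) and Phf1 (r = 0.995).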

How the data were processed

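RNA of mouse prostate was sequenced in 6 libraries, 2 per group, assigned to groups from their labels. The deposited values are whole-number counts per gene that the authors made in 1 table, with no normalization. TopHat2 2.0.14 (build mm10) and HTSeq 0.6.0 were used, per the submitters' processing notes. The annotation, the strand setting and the handling of reads with several matches were not given in the sources used here. Columns that matched no sample numbered 0. Per the labels' protocols, total RNA was extracted with RNA-Bee and libraries were made with a Kapa kit.

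Genes were kept by filterByExpr (minimum count 10, minimum total 15), scaled by TMM and tested with edgeR 4.0.16 (quasi-likelihood F test, R 4.3.3) in 1 fit of all 3 groups with 3 residual degrees of freedom and a common dispersion of 0.143 (biological coefficient of variation 0.378). Standard errors are the log2 fold change divided by the square root of F. Adjustment followed Benjamini and Hochberg over all genes, with a threshold of 0.05. Replicates of a group correlated at 0.947 to 0.983 over genes, and no library was a copy of another. The script was tested on simulated data with 1 common dispersion for all genes. It recovered 49%, 48% and 40% of 4-fold changes for 12Q against WT, 48Q against WT and 12Q against 48Q. Of 16-fold changes it recovered 100% in each. Recovery for genes with another dispersion was not tested. A gene that did not pass may therefore still differ by 4-fold or by more. In 48Q against WT, Cdkn2a was 81.2-fold higher by the edgeR fit and did not pass (adjusted p = 0.0501). Pmaip1 was 8.10-fold higher there and did not pass either (edgeR adjusted p = 0.0821).

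Alternatives were DESeq2's size factors, library totals, no filter, DESeq2 1.42.0, only the 2 groups compared, a replicate block and leaving out each library. The members and lists were chosen with earlier results of these data known. Of each pathway list, up to 4 called genes of smallest adjusted p are named, or, where none was called, the 2 of highest mean CPM (some genes that this rule takes are not reported here); others are listed as called genes, and Ccng1, Cdk4 and Mdm4 are named after their values were seen. Coordinates are those of the table, 1-based, and 23509 of 24091 symbols were found in GENCODE M21, of which 23446 overlapped the gene of that name. Values per kilobase use the gene lengths deposited with the counts. These differ from M21 exon unions (Cdkn1a 2.222 kilobases against 3553 bases, Mdm2 3.133 kilobases against 5083 bases). Ratios and shares between genes therefore depend on the length used. Because strand use is unknown, named genes whose exons overlap another gene are uncertain: Cdkn1a, Cdkn1c, Bax, Ccna2, Ccnd2, Cdk4, Cdk6, Ep300, Ezh2, Hmga2, Igfbp7, Il1a, Krt5, Plk3, Tigar, Tbx3 and Top2a. Promoter windows run from 250 bases before to 50 after a RefSeq start and are printed up to the first annotated transcript base; the p53 matching rule was chosen after the sequences were seen. Cdkn1c had no window.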

Additional observations from a re-analysis of the deposited data

Results flagged for a closer look

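The effects of the 2 tumor groups differed, by the test of 12Q against 48Q itself (edgeR, adjusted over all genes), for 5 of the 123 tested genes of the pathway lists, or 4.07%, beside 4.17% of all genes, so the number itself is near the background. Trp63 differed by -7.80 on the log2 scale (adjusted p = 0.00813), with both 12Q libraries lower, and this held in all 12 alternatives. Ccnd2 differed by -2.19 (adjusted p = 0.0246), with both 12Q libraries lower. Dcxr was higher in 12Q by 1.62 (adjusted p = 0.0449), Ppm1d by 1.48 (adjusted p = 0.0478) and Top2a by 1.58 (adjusted p = 0.0408), each in both 12Q libraries. The calls of Ccnd2, Dcxr, Ppm1d and Top2a were lost when any tumor library was left out, those of Dcxr, Ppm1d and Top2a also with library totals, and those of Ppm1d and Top2a also without either WT library. The Ppm1d call was lost in 9 of 12 alternatives, and Trp63 was -7.12 without 12Q replicate 1 and -9.33 without 12Q replicate 2.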

How the results depend on the processing

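The member settings kept direction and side of the threshold in 279 cases, gained the threshold in 23, lost it in 6 and changed sign in 16, over 12 alternatives. Some sign changes came with library totals. Cdkn1b was then 0.24 and 0.44 in the 12Q and 48Q comparisons with WT and -0.20 between tumors. Mdm2 was then 0.23 in 48Q against WT, where the main analysis gave -0.46. With 1 library left out, Cdkn2d in 48Q against WT was -0.13 to 0.49 and Cdkn1b in 12Q against 48Q -0.27 to 0.26. In the latter comparison Cdkn1c was 0.0239 with DESeq2's size factors, 0.00711 without the filter, 0.0240 by DESeq2, 0.0125 with only the 2 groups, and -0.80 to 0.54 with 1 library left out. Counts of calls moved as follows, and the cause was not tested. With library totals 12Q against WT had 3266 higher and 1032 lower genes, 48Q against WT 1921 and 83 with 3 members, and 12Q against 48Q 62 higher. With DESeq2 48Q against WT had 1561 higher and 979 lower with 3 members, and 12Q against 48Q 920 and 1561 with 1 member. With only the 2 groups 12Q against WT had 997 and 890, 48Q against WT 342 lower with 1 member, and 12Q against 48Q 289 higher with 1 member. Without the filter 48Q against WT had 1 member. With 1 library left out, 12Q against WT had 993 to 1709 higher, 838 to 1346 lower and 2 to 6 members, 48Q against WT 0 to 858, 0 to 390 and 0 to 1, and 12Q against 48Q 1 to 240, 46 to 626 and 0 to 1. Same-numbered samples did not pair (correlations of deviations 0.0252, 0.134 and -0.103). The replicate block gave 5, 0 and 0 members, with 1559 and 1507, 659 and 195, and 144 and 461 genes higher and lower; Cdkn1a in 12Q against WT was 2.51 (edgeR adjusted p = 0.0383) and Cdkn1b in 12Q against 48Q -0.0316. The block also ended the calls of Dcxr in 48Q against WT (adjusted p = 0.0526) and of Ppm1d between the tumors (0.0567). Alternatives for list genes were added after seeing the data. WT held 1 Cdkn2a count, so depth limits its ratio.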
